A study of Mus musculus with 14 samples.

Results

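Odc1, Amd1, Srm, Sms, Oaz1, Azin1 and Sat1 are the core genes of polyamine metabolism, and their mRNA levels were examined in bone marrow cells exposed to PBS or IL-1β. The 7 genes were chosen by name for their roles in the pathway, out of 55487 genes in the count tables, with earlier results of these data known. All 7 had enough counts to be tested in every comparison (between 182 and 14349 counted read pairs per gene and library). RNA was sequenced from sorted LSK (Lin-Sca1+c-kit+) cells and LK (Lin-c-kit+) cells, which the labels also name MP, and from cultured bone marrow mesenchymal stromal cells (MSC). The LSK and LK cells came from C57BL/6 mice that carried heterozygous Jak2V617F bone marrow (Jak2VF/+) after lethal irradiation and transplantation. In the donors the mutant allele was switched on by Mx1Cre after injection of pI-pC, so control and treated mice shared the mutation, the transplant and the interferon-type stimulus of the donors. These mice received PBS or 0.5 µg of IL-1β per dose into the peritoneum, 3 times per week for 16 weeks. The MSC were grown for 21 days from the bone marrow of wild-type C57BL/6 mice and were then kept for 72 h with PBS or 5 ng/ml IL-1β. There were 3 PBS and 2 IL-1β libraries of LSK cells, the same numbers of LK cells, and 2 PBS and 2 IL-1β libraries of MSC. Young adult mice were used, according to the study, and the labels give no age. The LSK and LK cells were sorted after the transplant and the 16 weeks of injections, when the mice were older. The study's legends count the LSK samples as mice, but the labels do not say whether libraries of a group came from separate animals or cultures, so p-values measure only the spread between these libraries.

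Polyamines are small positively charged molecules that bind RNA, DNA and proteins and that dividing cells need in large amounts. Odc1 (ornithine decarboxylase) makes putrescine, the first polyamine, and its gene is a textbook target of Myc. Amd1 (S-adenosylmethionine decarboxylase) supplies the aminopropyl groups that Srm (spermidine synthase) and Sms (spermine synthase) add in turn to give spermidine and spermine. Oaz1 (antizyme) binds the Odc1 protein and sends it to the proteasome, Azin1 (antizyme inhibitor) binds antizyme and frees Odc1, and Sat1 (spermidine/spermine acetyltransferase) acetylates polyamines for export or oxidation. Much of the control of Odc1, Oaz1 and Sat1 acts on translation and protein stability, which mRNA counts do not show.

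The DNA just upstream of 3 synthesis genes is shown, because the levels of Amd1 and Sms went with that of Odc1. Over the LSK and LK libraries Pearson's r with Odc1 was 0.844 for Amd1 and 0.801 for Sms, as a description. Amd1 with Sms had a lower r (0.59), and Sat1, which is not printed, had 0.733 with Odc1 and 0.799 with Sms. RefSeq (GRCm38.p6) had a promoter entry for 5 of the 7 genes, all but Srm and Azin1. The 250 bases upstream of each annotated start were searched on both strands for CACGTG (E-box, the core bound by Myc and Max), GGGCGG (GC box) and TATAAA, and the letters matched are in capitals, CCGCCC being a GC box on the other strand. Bases inside the Ensembl gene are left out.
Odc1, chr12:17544623-17544793, plus strand: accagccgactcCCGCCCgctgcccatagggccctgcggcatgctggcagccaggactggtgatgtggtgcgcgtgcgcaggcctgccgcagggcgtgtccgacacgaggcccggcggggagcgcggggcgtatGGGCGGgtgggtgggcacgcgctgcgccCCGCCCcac
Amd1, chr10:40302189-40302438, minus strand: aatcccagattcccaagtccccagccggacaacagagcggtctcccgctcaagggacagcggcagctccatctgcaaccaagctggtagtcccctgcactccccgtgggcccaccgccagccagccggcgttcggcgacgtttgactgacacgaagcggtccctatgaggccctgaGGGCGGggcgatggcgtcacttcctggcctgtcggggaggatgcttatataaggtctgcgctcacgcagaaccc
Sms, chrX:157492288-157492537, minus strand: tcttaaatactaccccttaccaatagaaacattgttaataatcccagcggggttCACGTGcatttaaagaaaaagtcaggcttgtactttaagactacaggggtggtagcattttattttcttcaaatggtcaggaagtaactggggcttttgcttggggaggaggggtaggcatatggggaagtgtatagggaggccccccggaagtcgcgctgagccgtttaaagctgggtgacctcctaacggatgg
The Odc1 window held 4 GC boxes, at 238, 116, 88 and 15 bases before the RefSeq start, the last of them inside the Ensembl gene and not printed. Amd1 held 1 GC box, 74 bases before its start. Sms held 1 E-box 196 bases before this start, and 4 GC boxes before a second RefSeq start that lies inside the gene. Sat1 held 2 GC boxes, and Oaz1 held none of the 3 motifs. No motif overlapped another kind of motif in the printed stretches. A GC box was present in 32.7% and an E-box in 6.02% of 32817 promoter windows of the same length, and TATAAA in 12.4%. This last string did not occur in the upstream windows of these 5 genes, which says nothing about binding elsewhere in the loci.

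In the files' own coordinates (GRCm38, Ensembl) Odc1 spans chr12:17544794-17551505, Amd1 chr10:40287458-40302188, Srm chr4:148591503-148594993, Sms chrX:157443855-157492287, Oaz1 chr10:80826656-80829290, Azin1 chr15:38487427-38519266 and Sat1 chrX:155213132-155216449. The counts cover the exons of each gene. Amd1 has a near-identical copy, Amd2, and several pseudogenes, and Oaz1 has a processed pseudogene. Amd2 had 206 counts and Amd-ps4 192 over the 14 libraries, against 38575 for Amd1, and Oaz1-ps had 278 against 95781 for Oaz1. Read pairs that fitted several copies equally were not counted, so the levels of Amd1 and Oaz1 may be understated.

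Library totals ran from 4393233 to 30871055 counted read pairs, and every IL-1β library of LSK and LK cells was shallower than every PBS library. Replicate libraries of all groups differed beyond counting noise, which cannot show whether they came from separate animals or cultures. In MSC the 2 IL-1β libraries differed more than 2-fold at 11 of 13239 genes, and the 2 PBS libraries at 771. PBS replicate 2 of LSK cells stood apart, with 2371 and 2512 of 13132 genes more than 2-fold away from the other PBS libraries, which differed from each other at 541. Marker genes were checked against the labels. All 10 markers of stem and multipotent cells were detected in LSK cells, with a summed level of 1582 to 2103 CPM (counts scaled to a common library size) with PBS. The MSC libraries carried 10 macrophage markers at a summed 11948 to 15768 CPM with PBS and 32170 to 33130 with IL-1β, above the 10 mesenchymal markers (1471 to 2953 and 3795 to 4314). Lepr, a defining marker of marrow stroma, had 0 counts in both PBS libraries. It was the only 1 of the 10 mesenchymal markers without counts there, and with IL-1β all 10 were detected. Macrophage markers thus exceeded mesenchymal ones in all 4 of these libraries, against the label, and MSC is used below as the name the labels give. In all of these bulk samples fewer cells of a type and less RNA per cell cannot be told apart.

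To compare genes with each other, levels were expressed as RPKM, the CPM divided by the kilobases of exon, scaled over all 14 libraries. In LSK and LK cells Oaz1, Odc1 and Srm were the most abundant members and Sms and Sat1 the least, whereas in MSC Oaz1 and Sat1 were far above the rest. In LSK cells with PBS, Oaz1 had 193 ± 43.3 RPKM (SD, n = 3), Odc1 105 ± 42.5, Srm 90.6 ± 15.6, Amd1 56.7 ± 6.08, Azin1 22.3 ± 1.28, Sms 13.1 ± 2.08 and Sat1 9.41 ± 2.21. The libraries of neighbours in this order overlapped for Oaz1 and Odc1, for Odc1 and Srm, and for Sms and Sat1. With IL-1β the order in LSK cells began with Odc1 (264 ± 46.9 RPKM, n = 2), whose libraries overlapped those of Oaz1 (225 ± 63.2), and Oaz1 in turn overlapped Srm (166 ± 72.5). They were followed without overlap by Amd1 (80.4 ± 0.519), Azin1 (28.2 ± 2.23), Sms (18.8 ± 3.52) and Sat1 (14.5 ± 0.0931).

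LK cells with PBS already had Odc1 and Srm close to Oaz1. Oaz1 stood at 239 ± 11.9 RPKM (SD, n = 3), Odc1 at 211 ± 24.7, Srm at 211 ± 11.3, Amd1 at 98.2 ± 7.67, Azin1 at 23.9 ± 0.818, Sms at 17.4 ± 0.625 and Sat1 at 13.2 ± 2.68. With IL-1β the first 3 were Srm (229 ± 22.6, n = 2), Odc1 (225 ± 32.7) and Oaz1 (203 ± 0.0573), again overlapping between neighbours. The remaining 4 kept this order without overlap between neighbours, at 87.5 ± 3.59 RPKM for Amd1, 30.2 ± 0.506 for Azin1, 16.6 ± 0.413 for Sms and 14.2 ± 1.14 for Sat1. In MSC with PBS the order was Oaz1 (265 ± 52.0 RPKM, n = 2), Sat1 (186 ± 20.5), Azin1 (41.7 ± 8.67), Odc1 (31.5 ± 3.75), Srm (29.4 ± 1.05), Amd1 (25.0 ± 5.55) and Sms (8.53 ± 0.787). Odc1 overlapped Srm, and Srm overlapped Amd1. With IL-1β, Oaz1 (181 and 196 RPKM) and Sat1 (182 and 192 RPKM) overlapped, Azin1 followed (32.4 ± 1.32, n = 2), and the synthesis genes ran from Srm (22.9 ± 0.397) through Odc1 (20.2 ± 0.770) and Amd1 (20.2 ± 0.362) to Sms (6.64 ± 0.330), with overlap between Odc1 and Amd1 alone.

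**Figure D1:**
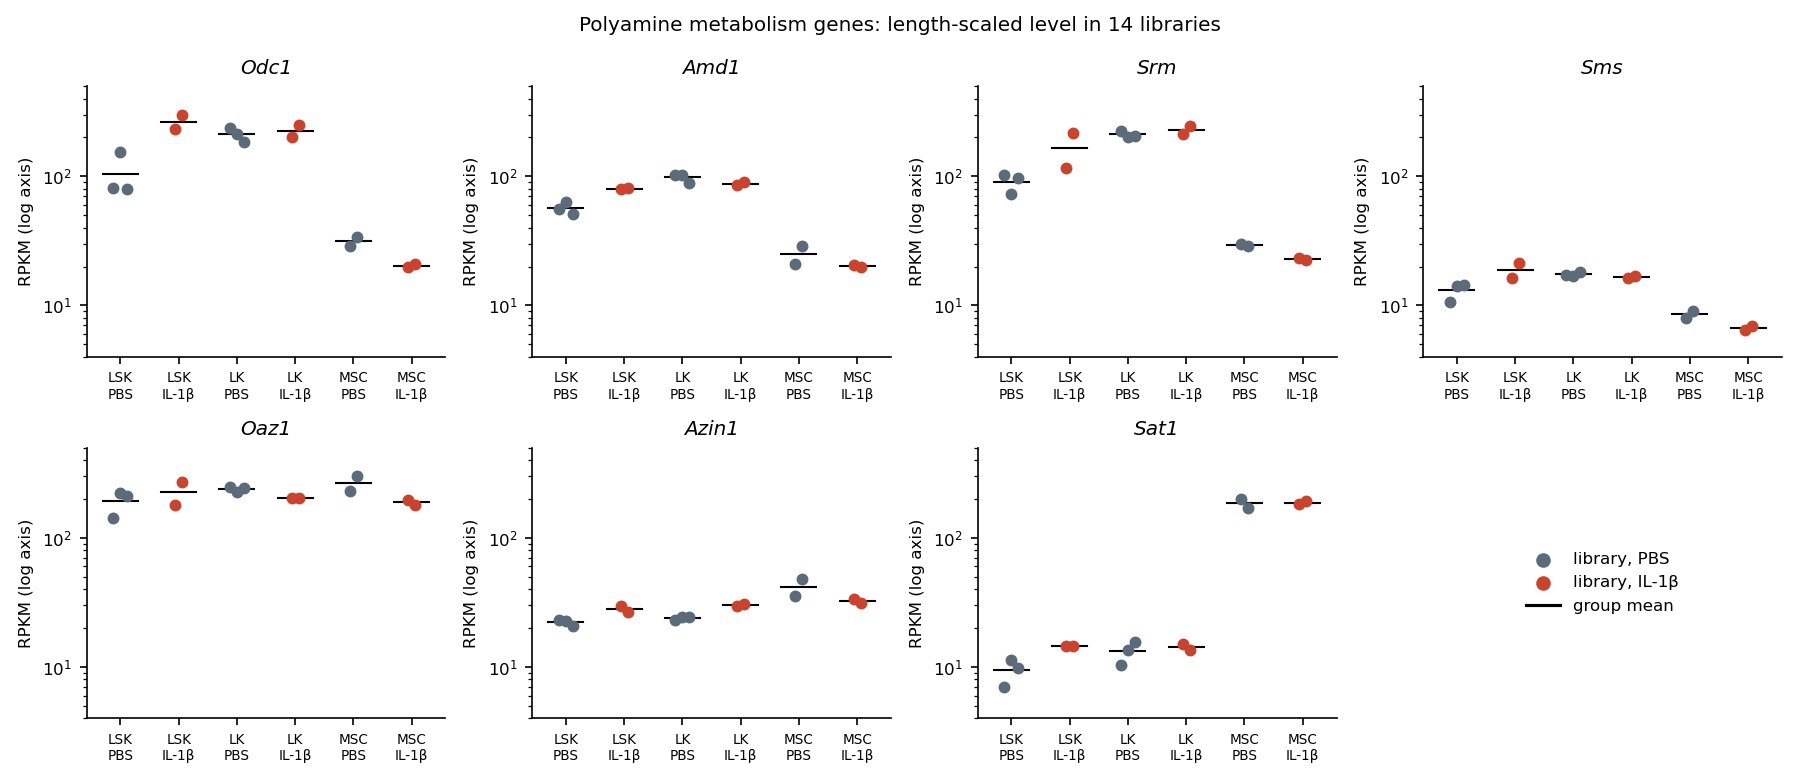
Length-scaled level (RPKM, log axis) of each gene in all 14 libraries, by cell population and treatment. Points are libraries (grey PBS, red IL-1β) and lines are group means. Sat1 lay between 171 and 200.4 RPKM in MSC and at or below 15.7 in LSK and LK cells, while Odc1 in LSK cells ran from 79.8 to 154 with PBS and reached 230.4 and 297 with IL-1β.

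The first question was whether IL-1β given to Jak2VF/+ mice changed these genes in LSK cells. All 7 genes had a positive log2 fold change (IL-1β over PBS), and for 6 the IL-1β values exceeded every PBS value, whereas Oaz1 overlapped. None of the 7 was called, a call meaning that edgeR's quasi-likelihood test gave an adjusted p under 0.05 together with a log2 fold change larger than 0.5 in size. Over all 13132 genes tested in LSK cells 0.632% (83 genes) were called, a count that rose to 905 with DESeq2 and 1228 when LSK and LK libraries were fitted jointly and ran from 3 to 480 when each library was left out. For 18.2% of these genes the libraries did not overlap, with IL-1β higher. The median log2 fold change of the 7 was 0.52, against -0.06 for all genes tested. Before adjustment, Odc1 and Srm had p under 0.05, which 18.5% of all genes had. Without the PBS library that stood apart, a check chosen after seeing the data, 6 of the 7 again lay above PBS, against 29.2% of all genes.

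Odc1, the first enzyme of synthesis, had 303, 579 and 309 CPM in the 3 PBS libraries of LSK cells and 871 and 1129 CPM with IL-1β. The highest PBS value belonged to replicate 2 and still lay below both IL-1β libraries. The log2 fold change was 1.33 (SE 0.33, 95% interval 0.59 to 2.08), and it missed the threshold in edgeR (adjusted p = 0.0986). It passed with DESeq2 (adjusted p = 0.00321) and, in edgeR, when LSK and LK libraries were fitted jointly (0.0156), without filtering low counts (0.00102) and with the replicate number as a block (0.0279), and without PBS replicate 2 the log2 fold change was 1.73 (0.0301). With limma-voom the adjusted p was 0.139, and without IL-1β replicate 2 it was 0.531 in edgeR. The study itself, which used DESeq2, reported Odc1 as significantly raised with IL-1β in these same LSK libraries. It listed Odc1 and Srm among Myc targets chosen on them, so their direction here is not independent evidence. For Odc1 the study also reported a rise with IL-1β in LSK cells by RT-qPCR, a separate measurement that these counts do not include.

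Amd1 had 218, 248 and 206 CPM with PBS and 315 and 320.0 CPM with IL-1β in LSK cells. Its IL-1β libraries were close to each other and above every PBS library. The log2 fold change was 0.50 (SE 0.23, interval -0.0031 to 1.01, edgeR adjusted p = 0.272). Srm, which makes spermidine, had 181, 129 and 175 CPM with PBS and 204 and 389 CPM with IL-1β. The groups did not overlap, but IL-1β replicate 1 lay near PBS and replicate 2 was the high library. The log2 fold change was 0.87 (SE 0.31, interval 0.18 to 1.56, edgeR adjusted p = 0.191), and leaving out IL-1β replicate 2 brought it to 0.35. Sms, which makes spermine, had 70.9, 93.9 and 98.4 CPM with PBS and 109 and 143 CPM with IL-1β. Here too replicate 2 was the higher IL-1β library, and the log2 fold change was 0.52 (SE 0.26, edgeR adjusted p = 0.309).

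The regulators of Odc1 and the catabolic enzyme Sat1 were not called in LSK cells either. Oaz1 had 405, 633 and 616 CPM with PBS and 512 and 771 CPM with IL-1β. The groups overlapped, with a log2 fold change of 0.22 (SE 0.30, edgeR adjusted p = 0.733). Azin1 had 160.0, 158 and 148 CPM with PBS and 207 and 186 CPM with IL-1β. All 3 PBS libraries of Azin1 were alike and below the IL-1β libraries, but the log2 fold change of 0.34 (SE 0.22) had an adjusted p of 0.434 in edgeR. Sat1 had 21.5, 34.9 and 31.1 CPM with PBS and 44.4 and 45.1 CPM with IL-1β. Its groups did not overlap, with a log2 fold change of 0.62 (SE 0.29, edgeR adjusted p = 0.293).

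Markers of cell types moved with treatment in the LSK libraries. The 7 markers used for granulocyte-monocyte progenitors were Elane, Mpo, Prtn3, Ctsg, Ms4a3, Calr and Fcgr3. They summed to 3298 to 4542 CPM with PBS and 12638 to 15618 with IL-1β, and 4 of the 7 were called higher. The 8 late neutrophil markers summed to 3.10 to 9.95 and 167 to 196 CPM, with 1 called higher. The 10 stem and multipotent markers summed to 1582 to 2103 and 899 to 1037, with 3 called lower. The 8 cell cycle markers summed to 2917 to 3347 and 2703 to 2947 CPM, with 0 called in edgeR. The part of these shifts in the values of the polyamine genes was not tested.

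In LK cells the same comparison gave small differences. None of the 7 genes was called, where 9.34% of all 12835 genes tested were, and the median log2 fold change was 0.17, against -0.03 for all genes. IL-1β libraries lay above PBS without overlap for Srm and Azin1, a pattern seen for 23.5% of all genes, and below PBS for Oaz1, as for 22.2%. Azin1 had 147, 157 and 157 CPM with PBS and 203 and 206 CPM with IL-1β. Both IL-1β libraries lay well above PBS relative to the spread, with a log2 fold change of 0.41 (SE 0.09, interval 0.21 to 0.62). Its adjusted p was 0.0248 in edgeR, but the change was under the fold threshold, and the adjusted p ranged from 0.00598 to 0.222 when each library was left out in turn. It exceeded 0.05 without either IL-1β library, without PBS replicate 1 and without PBS replicate 2.

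Odc1, already abundant in LK cells, had 815, 738 and 654 CPM with PBS and 746 and 911 CPM with IL-1β. These overlapped, with a log2 fold change of 0.17 (SE 0.13, interval -0.13 to 0.47, edgeR adjusted p = 0.472). Srm had 365, 331 and 341 CPM with PBS and 370.2 and 423 CPM with IL-1β (log2 fold change 0.20, SE 0.10, edgeR adjusted p = 0.271). Amd1 overlapped, with 370.3, 373 and 328 CPM with PBS and 326 and 344 CPM with IL-1β (IL-1β replicate 1 lowest of all) and a log2 fold change of -0.09 (SE 0.10, edgeR adjusted p = 0.62). Sms barely varied over the 5 LK libraries, from 104 to 113 CPM with PBS and 106 to 109 CPM with IL-1β, and its log2 fold change was 0.005 (interval -0.21 to 0.22). Oaz1 had 649, 590.4 and 641 CPM with PBS and 564 and 561 CPM with IL-1β, lower in both IL-1β libraries, with a log2 fold change of -0.16 (SE 0.10, edgeR adjusted p = 0.368). Sat1 had 29.4, 38.5 and 45.2 CPM with PBS and 45.2 and 40.1 CPM with IL-1β, overlapping groups with a log2 fold change of 0.18 (SE 0.19, edgeR adjusted p = 0.606).

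Beside these values, the 7 granulocyte-monocyte progenitor markers in LK cells summed to 5897 to 11507 CPM with PBS and 22162 to 25559 with IL-1β (7 of 7 called higher). The 10 erythroid markers summed to 4793 to 6364 and 3057 to 3429 CPM (5 called lower). The 8 late neutrophil markers summed to 5.96 to 18.9 and 282 to 553 CPM (4 called higher), and the 10 stem and multipotent markers to 528 to 700.0 and 476 to 564 CPM (2 called lower). The part of these shifts in the polyamine values was not tested.

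In MSC the polyamine genes pointed the other way. All 7 log2 fold changes were negative, with a median of -0.40 against 0.00 for all genes, and for 6 of 7 both IL-1β libraries lay below both PBS libraries, as did those of 29.8% of all 13239 genes tested. Odc1 fell and was the only one of the 7 called, where 11.4% of all genes were called and 4.31% were called lower. Before adjustment 5 of the 7 had p under 0.05, as had 30% of all genes. For 5 of the 7 (Odc1, Srm, Sms, Amd1 and Azin1) the IL-1β libraries lay above PBS in LSK cells and below PBS in MSC, against 7.76% of 11566 genes tested in both. For Srm and Azin1 they lay above PBS in LK cells and below it in MSC, against 5.41% of 11358 genes.

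Odc1 had 83.0 and 95.9 CPM in MSC with PBS and 53.2 and 59.1 CPM with IL-1β. The groups were well apart, with a log2 fold change of -0.68 (SE 0.12, interval -0.98 to -0.38, edgeR adjusted p = 0.0251). The call was lost without IL-1β replicate 1 (adjusted p = 0.362) and without IL-1β replicate 2 (0.226), where 1 library stood for the treatment. Oaz1, the antizyme, had 494 and 637 CPM with PBS and 398 and 386 CPM with IL-1β. Its log2 fold change was -0.53 (SE 0.15, edgeR adjusted p = 0.0736), and it passed with DESeq2 (adjusted p = 0.013). Srm had 40.7 and 37.7 CPM with PBS and 29.4 and 30.3 CPM with IL-1β (log2 fold change -0.39, SE 0.11, edgeR adjusted p = 0.0797). Sms had 40.5 and 45.0 CPM with PBS and 30.5 and 34.5 CPM with IL-1β (log2 fold change -0.40, SE 0.13, edgeR adjusted p = 0.0943). Both pairs of libraries of these spermidine and spermine synthase genes were separate.

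Amd1 had 63.2 and 84.6 CPM with PBS and 57.5 and 59.0 CPM with IL-1β in MSC, and Azin1 had 188 and 247 CPM with PBS and 165 and 164 CPM with IL-1β. In both, PBS replicate 3 was the high library and PBS replicate 2 lay close to IL-1β. The log2 fold change was -0.35 for Amd1 (SE 0.15, edgeR adjusted p = 0.194) and -0.40 for Azin1 (SE 0.15, edgeR adjusted p = 0.142). Over the 4 fits that each dropped 1 MSC library, the log2 fold change of Amd1 lay between -0.53 and -0.12. That of Azin1 lay between -0.57 and -0.18, that of Oaz1 between -0.69 and -0.33 and that of Odc1 between -0.77 and -0.57. For Amd1, Azin1 and Oaz1 the smallest change was the one without PBS replicate 3. In each of these fits 1 library stood for a treatment and was assumed to vary like the libraries of the other treatment. Sat1, the second most abundant member in MSC per kilobase, had 469.8 and 392 CPM with PBS and 399.6 and 444 CPM with IL-1β. Its groups overlapped, with a log2 fold change of -0.03 (interval -0.36 to 0.30, edgeR adjusted p = 0.905). In the same libraries the 8 cell cycle markers summed to 651 to 873 CPM with PBS and 298 to 315 with IL-1β (5 of 8 called lower), and 6 of 10 macrophage markers were called higher. The 8 late neutrophil markers summed to 3.09 to 3.83 and 67.7 to 71.7 CPM (3 of 8 called higher). Their part in these values was not tested.

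**Figure D2:**
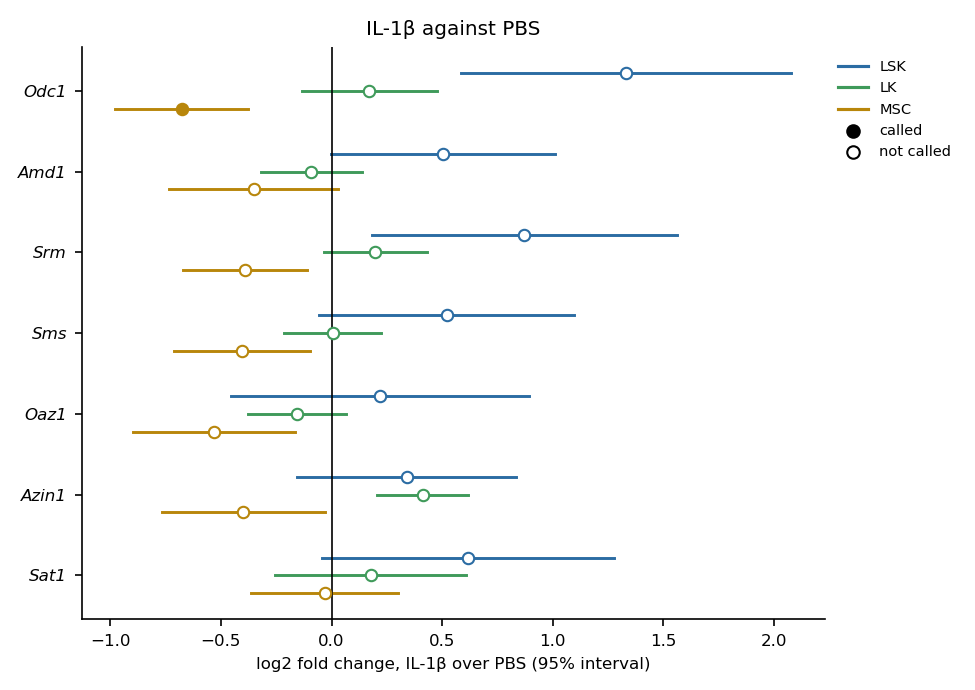
Log2 fold change (IL-1β over PBS) of each gene in LSK, LK and MSC, with the 95% interval from edgeR's quasi-likelihood fit. Filled points were called. Odc1 stands at 1.33 in LSK, 0.17 in LK and -0.68 in MSC, where it is the only filled point, and Sat1 in MSC is at -0.03.

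LSK and LK cells of the same treatment were next compared in a joint fit of their 10 libraries. These comparisons use the libraries of the treatment comparisons above and are not independent of them. With PBS, Odc1, Srm and Amd1 were lower in LSK than in LK cells and were called, 3 of 7, where 31.8% of all 13839 genes tested were called and 12.4% were called lower. The length-scaled level of Odc1 was 80.4, 154 and 79.8 RPKM in LSK and 235, 212 and 185 RPKM in LK cells, a log2 difference (LSK over LK) of -0.89 (SE 0.24, edgeR adjusted p = 0.0151). No LSK library reached the LK range, and the adjusted p was 0.0615 without LK PBS replicate 1. Srm was at 102, 73.0 and 96.4 RPKM in LSK and 224, 203 and 206 RPKM in LK cells, a log2 difference of -1.09 (SE 0.23, edgeR adjusted p = 0.0037). Amd1 was at 55.6, 63.2 and 51.2 RPKM in LSK and 102, 103 and 89.3 RPKM in LK cells, a log2 difference of -0.67 (SE 0.14, edgeR adjusted p = 0.0036). All LK libraries were above all LSK libraries for both.

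Sms also did not overlap with PBS, at 10.7, 14.1 and 14.4 RPKM in LSK and 17.3, 16.9 and 18.1 RPKM in LK cells. With it 4 of the 7 lay lower in LSK without overlap, as did 21.8% of all genes, although its log2 difference of -0.29 (SE 0.16) had an adjusted p of 0.198 in edgeR. The differences of Sat1 (-0.37, adjusted p = 0.211), Oaz1 (-0.19, 0.512) and Azin1 (0.02, 0.924) did not pass in edgeR, and their libraries overlapped.

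With IL-1β none of the 7 differed past the threshold between LSK and LK cells, where 4.4% of all genes were called. Odc1 was at 230.4 and 297 RPKM in LSK and 202 and 248 RPKM in LK cells, a log2 difference of 0.24 (interval -0.40 to 0.88, edgeR adjusted p = 0.676). The ranges overlapped, and the interval is wide enough to hold differences of either sign. Srm, at 115 and 217 RPKM in LSK and 213 and 245 RPKM in LK cells, had a log2 difference of -0.45 (interval -1.06 to 0.16, edgeR adjusted p = 0.376), with LSK replicate 1 the low library. Amd1 was at 80.0 and 80.8 RPKM in LSK and 84.9 and 90.0 RPKM in LK cells, a log2 difference of -0.11 (interval -0.48 to 0.26). The log2 differences of Sms (0.19), Sat1 (0.04), Oaz1 (0.16) and Azin1 (-0.09) were no larger than 0.19 in size, and none passed in edgeR.

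Whether LSK and LK cells responded to IL-1β to a different degree was tested as an interaction in the same fit. None of the 7 was called, where 0.0289% of all genes were, and Odc1 and Amd1 had p under 0.05 before adjustment, as had 14.2% of all genes. The interaction of Odc1 was 1.13 on the log2 scale (SE 0.38, interval 0.30 to 1.96, edgeR adjusted p = 0.241), relative to a median of -0.12 over all genes. It passed without LSK PBS replicate 2 (1.49, adjusted p = 0.0357). For Amd1 it was 0.56 (SE 0.22, adjusted p = 0.297), for Srm 0.64 (SE 0.36, 0.441), for Sms 0.48 (SE 0.26, 0.423), for Sat1 0.41 (0.621), for Oaz1 0.34 (0.655) and for Azin1 -0.11 (0.849) in edgeR.

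**Figure D3:**
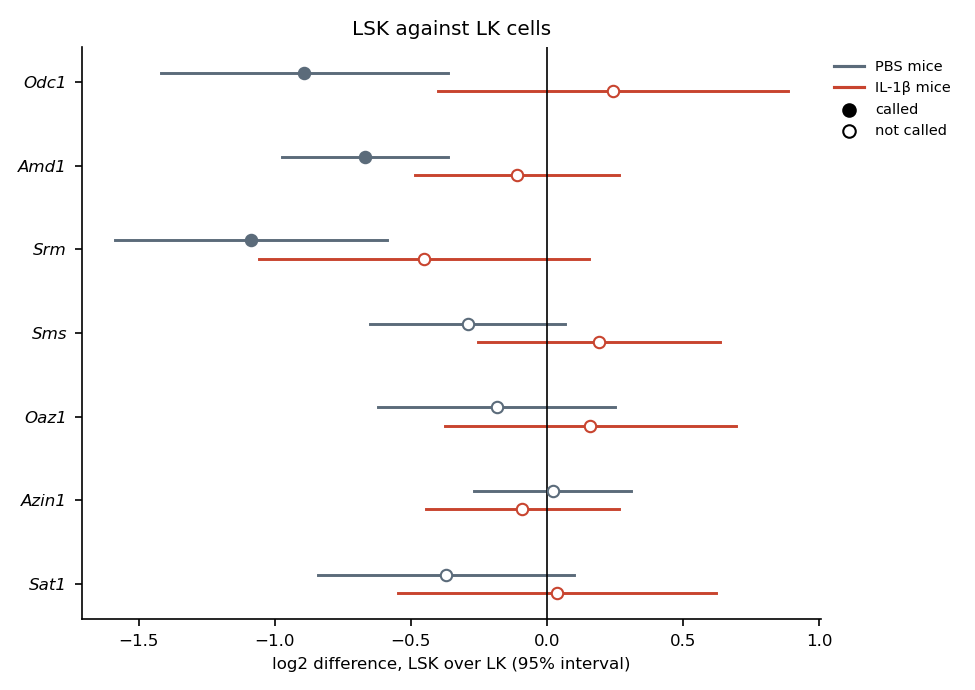
Log2 difference (LSK over LK) of each gene in PBS-treated (grey) and IL-1β-treated (red) mice, with the 95% interval from edgeR's joint fit. Filled points were called. With PBS, Odc1 (-0.89), Srm (-1.09) and Amd1 (-0.67) are filled and left of 0, and with IL-1β all 7 intervals include 0.

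Ratios within a library do not depend on its depth or scaling, so Odc1 was also set against its regulators as counts per kilobase. In LSK cells Odc1 over Oaz1 was 0.561, 0.687 and 0.377 in PBS libraries and 1.28 and 1.10 in IL-1β libraries. The groups did not overlap, and with IL-1β there was more Odc1 than Oaz1 mRNA per kilobase. In LK cells the ratio was 0.944, 0.939 and 0.767 in PBS libraries and 0.992 and 1.22 in IL-1β libraries, also without overlap but close. In MSC it was 0.126 and 0.113 in PBS libraries and 0.100 and 0.115 in IL-1β libraries, overlapping, since both genes were lower with IL-1β. With 3 libraries against 2, an exact permutation test cannot go under 0.05, so no p is given for these ratios.

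Azin1 over Oaz1, the antizyme inhibitor against the antizyme, did not overlap in LK cells, at 0.0925, 0.109 and 0.100 in PBS libraries and 0.147 and 0.151 in IL-1β libraries. In MSC it was 0.155 and 0.158 in PBS libraries and 0.170 and 0.174 in IL-1β libraries, a small shift without overlap. In LSK cells it was 0.161, 0.102 and 0.0982 in PBS libraries and 0.165 and 0.0987 in IL-1β libraries, so that replicate 1 of each treatment was high and the groups overlapped. Odc1 over Sat1, the first synthesis step against catabolism, was 11.5, 13.5 and 8.08 in the PBS libraries of LSK cells and 16.0 and 20.4 in IL-1β libraries. In LK cells it overlapped, at 22.6, 15.6 and 11.8 in PBS libraries and 13.4 and 18.5 in IL-1β libraries. In MSC it was below 1 in every library, 0.144 and 0.199 in PBS libraries and 0.108 and 0.109 in IL-1β libraries. Srm over Sms was 5.17 to 9.60 in the PBS libraries of LSK cells and 7.04 and 10.2 in IL-1β libraries, 11.4 to 14.5 over all LK libraries and 3.15 to 3.77 over all MSC libraries.

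**Figure D4:**
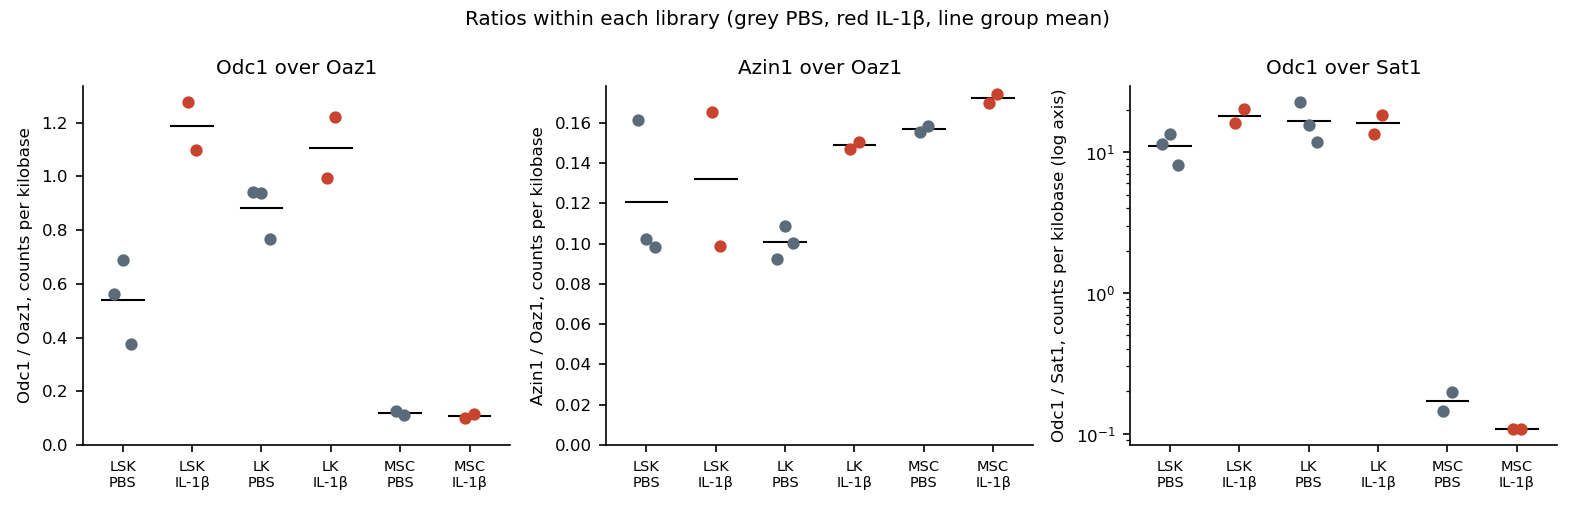
Ratio of counts per kilobase in each library for Odc1 over Oaz1, Azin1 over Oaz1 (both on linear axes from 0) and Odc1 over Sat1 (log axis), by population and treatment. Points are libraries and lines are group means. In LSK cells Odc1 over Oaz1 runs from 0.377 to 0.687 with PBS and reaches 1.10 and 1.28 with IL-1β.

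The wider pathway was described with 31 further genes of precursor supply, antizymes, catabolism, methylthioadenosine salvage, hypusine synthesis and transport, together with Amd2 and Myc. In LSK cells 23 of the 31 had enough counts and 0 were called in edgeR, where 0.632% of all genes were called. Before adjustment 7 had p under 0.05, against 18.5% of all genes, and DESeq2 called 4. Their median log2 fold change was 0.26, against -0.06 for all genes. In LK cells 22 were tested and 3 were called, all lower with IL-1β, where 9.34% of all genes were called and 2.57% were called lower. In MSC 22 were tested, of which 2 were called higher and 3 lower, against 7.14% and 4.31% of all genes.

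Smox (spermine oxidase), which turns spermine back into spermidine, fell in LK cells, from 20.4, 21.6 and 16.5 CPM with PBS to 7.15 and 8.02 CPM with IL-1β (log2 fold change -1.36, SE 0.22, edgeR adjusted p = 0.0083, and 0.143 and 0.0661 without IL-1β replicates 1 and 2). In LSK cells it had 17.0, 27.7 and 21.1 CPM with PBS and 6.45 and 7.93 CPM with IL-1β, and the log2 fold change of -1.62 (SE 0.40) missed the threshold (edgeR adjusted p = 0.0969, DESeq2 0.00925). The treatment groups were separate in both populations. In MSC Smox had 35.8 and 37.1 CPM with PBS and 51.6 and 50.9 CPM with IL-1β, with an edgeR adjusted p of 0.0369 but a log2 fold change of 0.49, just under the threshold. Paox, the oxidase that acts on acetylated polyamines, was not called by edgeR with IL-1β in any population, with log2 fold changes of 0.55 in LSK, 0.56 in LK (adjusted p = 0.0672) and 0.07 in MSC. In LK cells Paox was called higher with DESeq2 (adjusted p = 0.0382) and, in edgeR, with no filter (0.0229), with the replicate block (0.00864) and without PBS replicate 3 (0.00445).

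Atp13a2, a lysosomal polyamine exporter, fell in LK cells from 120, 128 and 141 CPM with PBS to 71.1 and 58.7 CPM with IL-1β (log2 fold change -0.99, SE 0.13, edgeR adjusted p = 0.0041). In LSK cells it had 303, 344 and 262 CPM with PBS and 150 and 120 CPM with IL-1β (-1.17, SE 0.25, edgeR adjusted p = 0.076, DESeq2 0.0012). In MSC it rose, from 321 and 274 CPM with PBS to 590 and 625 CPM with IL-1β (1.03, SE 0.13, edgeR adjusted p = 0.0092). Its libraries did not overlap in any of the 3 populations. Slc18b1, a vesicular polyamine transporter, fell in LK cells at low levels, from 6.44, 5.86 and 4.15 CPM to 1.72 and 2.25 CPM (log2 fold change -1.47, SE 0.39, edgeR adjusted p = 0.0475). The Slc18b1 call was lost with limma-voom (adjusted p = 0.124), in the joint fit (0.344), without either IL-1β library and without PBS replicate 1 or 2. Slc3a2, a chain of amino acid transporters also linked to polyamine export, had 124, 108 and 157 CPM with PBS and 226 and 243 CPM with IL-1β in LSK cells, without overlap but not called (0.86, SE 0.25, edgeR adjusted p = 0.131).

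Arg2, a mitochondrial arginase that makes ornithine, the substrate of Odc1, had 1 and 3 counts in the PBS libraries of MSC and 395 and 126 counts with IL-1β. Against a floor of 3 counts per library its level in treated cultures was at least 33.2-fold higher (edgeR adjusted p = 0.0016). In LSK and LK cells Arg2 had no more than 3 counts in any library. Myc, the upstream regulator, fell in MSC from 20.5 and 20.6 CPM to 10.3 and 10.8 CPM (log2 fold change -0.97, SE 0.15, edgeR adjusted p = 0.0171). In LSK cells Myc had 407, 195 and 399 CPM with PBS and 264 and 308 CPM with IL-1β (log2 fold change -0.22, edgeR adjusted p = 0.757). Its log2 fold change in LK cells was -0.28 (edgeR adjusted p = 0.277). A link between the levels of Myc and Odc1 was not tested.

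Eif5a, the translation factor that carries hypusine, an amino acid made from spermidine, fell in MSC from 567 and 685 CPM to 398 and 397 CPM (log2 fold change -0.66, SE 0.13, edgeR adjusted p = 0.0321). In LSK cells it had 1012, 941 and 1248 CPM with PBS and 1473 and 2130.5 CPM with IL-1β, apart but not called (0.76, SE 0.28, edgeR adjusted p = 0.206). Mtap, which recycles the methylthioadenosine released by Srm and Sms, fell in MSC from 42.3 and 42.5 CPM to 28.8 and 24.6 CPM (-0.66, SE 0.13, edgeR adjusted p = 0.030). Mri1, the next enzyme of that salvage route, had a log2 fold change of 1.01 in LSK cells without overlap (SE 0.26, edgeR adjusted p = 0.109). The MSC calls of Atp13a2, Eif5a, Mtap and Myc were lost when either IL-1β library was left out (adjusted p from 0.155 to 0.380), and that of Arg2 without IL-1β replicate 1 (0.0588).

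Between LSK and LK cells with PBS, 10 of 23 further genes tested were called, where 31.8% of all genes were. Atp13a2 (log2 difference 1.23), Slc22a3, an organic cation transporter (1.64), Azin2, the second antizyme inhibitor gene (2.21), Paox (0.87) and Oaz2 were higher in LSK cells. Azin2 was at low levels, with 34 to 58 counts per PBS library in LSK cells and 5 to 14 in LK cells. Mat2a, which makes S-adenosylmethionine (-0.69), Eif5a (-0.71), Slc3a2 (-0.52), Dhps and Atp13a3 were lower. Leaving out single libraries ended the calls of Azin2 (adjusted p up to 0.123), Paox (up to 0.0953), Slc3a2 (up to 0.0869), Eif5a (0.0584 without LK PBS replicate 1) and Dhps (up to 0.0561). With IL-1β, 2 were called, where 4.4% of all genes were, namely Atp13a2 (1.02) and Slc22a3 (1.38), both higher in LSK cells, and both calls were lost without LK IL-1β replicate 2 (adjusted p = 0.253 and 0.255) or LSK IL-1β replicate 1 (0.0797 and 0.110).

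**Figure D5:**
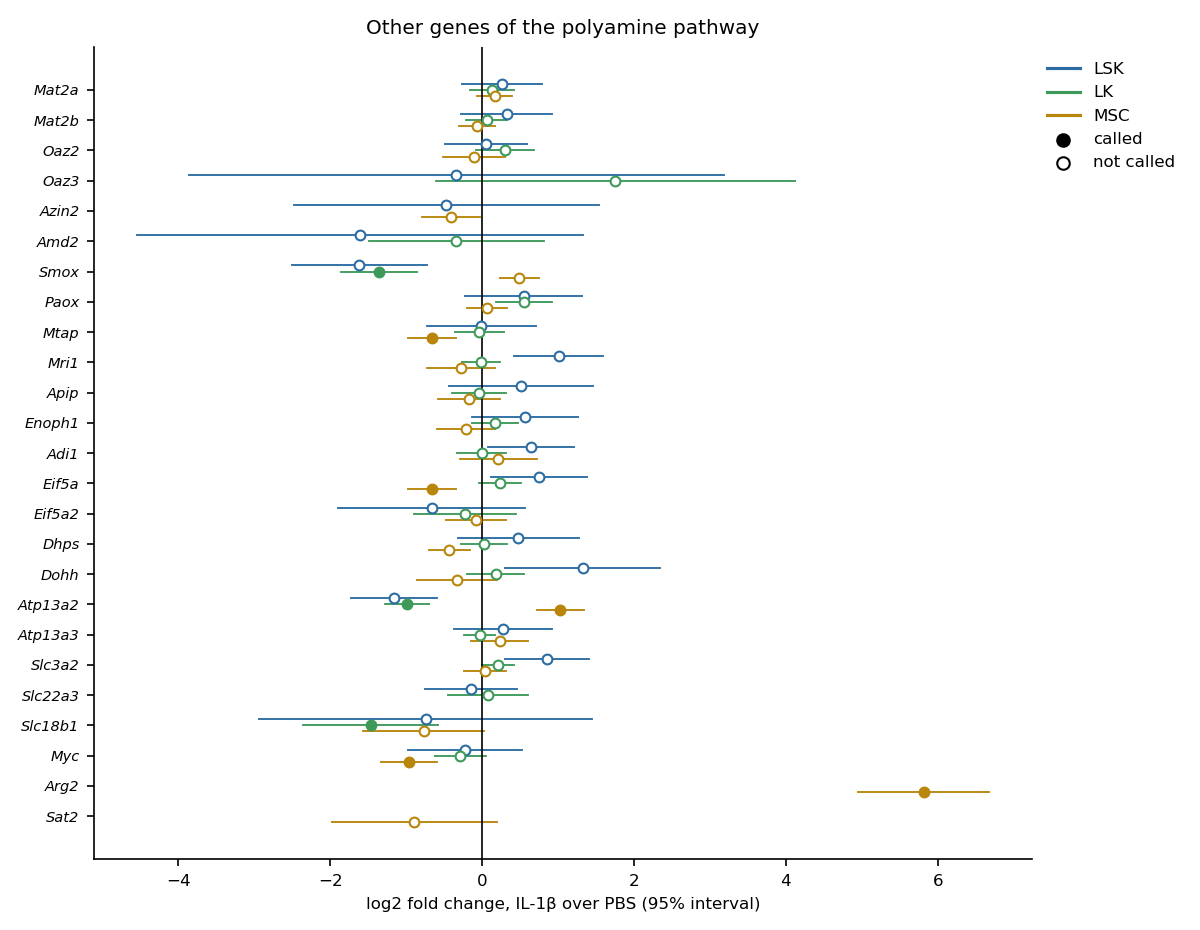
Log2 fold change (IL-1β over PBS) with 95% interval from edgeR for the further pathway genes that were tested in at least 1 of LSK (blue), LK (green) and MSC (gold). Filled points were called. Atp13a2 and Smox lie left of 0 in LSK and LK and right of 0 in MSC, and Arg2 stands alone at 5.81 in MSC, a value that depends on the fit because both PBS libraries had 3 counts or fewer.

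Over the 10 LSK and LK libraries, correlations of log2 CPM were taken as a description only, since libraries of a group share treatment and depth. Among the 7 genes the highest were Odc1 with Amd1 (Pearson's r = 0.844) and Srm with Amd1 (0.822), and the lowest was Oaz1 with Azin1 (-0.239). Of 6120 other genes with a mean of at least 5 log2 CPM, those most like Odc1 were Afg3l1 (0.987), Polr2c (0.986), Psmd6 (0.982), Yars (0.981) and Rpia (0.977). Those most like Sat1 were Ptgr1 (0.923), Tdg (0.913), Mettl6 (0.909), Morf4l2 (0.905) and Smndc1 (0.886).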

How the data were processed

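Gene expression was measured by RNA sequencing in 10 libraries of LSK or LK cells and 4 of MSC, grouped by the sample labels. The authors deposited raw counts, the number of read pairs on each gene. Per the submitters' processing notes and the file headers, reads were trimmed with fastp 0.20.0, aligned with HISAT2 2.0.1 to GRCm38 and counted with featureCounts 2.0.2 in reverse-stranded mode on Ensembl release 100, with no normalization and no pooling. The methods also name GenomicAlignments. The exon length of each gene (another column the authors deposited) gave RPKM. Symbols were matched for 55141 of 55487 identifiers from GENCODE M21. A further IL-1β library that the MSC table names was not analysed here.

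The main test was the two-sided quasi-likelihood test of edgeR 4.0.16 under R 4.3.3 (glmQLFit with robust estimation and glmQLFTest after filterByExpr and TMM) within each population, and jointly for LSK and LK cells. Benjamini-Hochberg adjustment ran over all genes tested, and a gene was called at adjusted p under 0.05 and a log2 difference above 0.5 in size. The SE is the log2 value divided by the square root of F. CPM were scaled by TMM within a population and RPKM over all 14 libraries. The test was tried on simulated data. Alternatives were DESeq2 1.42.0, limma-voom (limma 3.58.1), other size factors and filters, no fold threshold, a joint fit, the replicate number as a block, and each library left out. Libraries held 4393233 to 30871055 counts. The floor of 3 counts covers counting error only, since PCR copies are not independent molecules. Figures were drawn with matplotlib 3.10.9.

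The members and lists were chosen with earlier results of these data known. Values are given for all 7 members, for the further pathway genes called with IL-1β in any population and for 6 others (Paox, Slc3a2, Mri1, Azin2, Slc22a3 and Mat2a), and Oaz2, Dhps and Atp13a3 were named after their values were seen. Genes most like Odc1 and Sat1 are the 5 with the highest Pearson's r. Deviations from the group means of LSK and LK libraries with the same number had correlations of 0.211, 0.128 and 0.471 with PBS. For both pairs with IL-1β the value was 0.1002. The second PBS value lay within the range of libraries with different numbers, so pairing of the 2 populations by label number was not settled. The main tests used no block, and the pairs served as an alternative. PBS libraries with different numbers gave -0.381 to 0.162, and with 2 libraries the IL-1β values mirror each other. The block over these pairs changed no call of the 7 genes between LSK and LK cells or in the interaction. A list of lymphoid markers is not reported here.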

Additional observations from a re-analysis of the deposited data

Results flagged for a closer look

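Several genes had IL-1β libraries on opposite sides of PBS, without overlap, in sorted cells and in MSC. The differences between populations were not tested. The treatments also differed in route, dose and time (injected mice against cultures). The LSK and LK cells carried Jak2V617F and came from irradiated, transplanted mice, whereas the MSC were wild-type. Treatment, genotype, transplantation and culture cannot be told apart from the cell type. In LSK cells 5 of the 7 polyamine genes were higher and in MSC lower, as were 7.76% of 11566 genes tested in both. The LSK minus MSC difference in log2 fold change was 2.01 for Odc1, 1.26 for Srm, 0.93 for Sms, 0.86 for Amd1 and 0.74 for Azin1. It was 1.29 for Mri1 and 1.41 for Eif5a, and -2.11 for Smox and -2.20 for Atp13a2, which were lower in LSK cells and higher in MSC, as were 9.37% of those genes. In LK cells 2 of the 7 were higher and in MSC lower, as were 5.41% of 11358 genes, and the LK minus MSC difference was 0.59 for Srm and 0.81 for Azin1. It was 0.90 for Eif5a, -1.85 for Smox and -2.02 for Atp13a2, and 6.53% of genes were lower in LK cells and higher in MSC.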

How the results depend on the processing

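Of 651 values of single polyamine genes under the alternatives, 614 kept their direction and their side of the threshold, 12 newly passed it, 3 no longer passed it and 22 turned in sign. In LSK cells 1 gene (Odc1) was called with DESeq2, with no filter on low counts (adjusted p = 0.00102), with the replicate block (log2 fold change 1.24, adjusted p = 0.0279) and in the joint fit, and 0 to 1 were called when each library was left out. Calls over all genes in LSK cells numbered 905 with DESeq2, 869 with no filter, 702 with the block and 1228 in the joint fit. In LK cells 1 (Azin1) was called with no fold threshold, where 1346 of 12835 genes were. In MSC 2 (Odc1 and Oaz1) were called with DESeq2, where 1715 of 13239 genes were. Between LSK and LK cells with PBS, Odc1 was no longer called without LK PBS replicate 1. The settings that kept all libraries called 3 of the polyamine genes there, where 4396 to 4985 of all genes were called. In the interaction 1 (Odc1, 1.24) was called with no filter, where 398 of 24037 genes were, and Odc1 was also called without LSK PBS replicate 2. The cause of these changes was not tested.

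Values that turned in sign are given here. Azin1 between LSK and LK cells with PBS was -0.041 with DESeq2, -0.041 with its size factors, -0.092 with no filter, and -0.10 to 0.063 when each library was left out. Its interaction was 0.0044 with no filter and -0.15 to 0.018 when each was left out. Sms in LK cells was -0.037 with upper-quartile factors, -0.021 with no filter and -0.019 to 0.047 when each was left out. Sat1 in MSC was 0.011 with no filter and -0.15 to 0.11 when each was left out. Oaz1 in LSK cells was -0.081 to 0.48, and between LSK and LK cells with IL-1β the ranges were -0.17 to 0.37 for Oaz1, -0.11 to 0.070 for Sat1 and -0.021 to 0.32 for Sms.

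Over all genes, calls numbered 83 in LSK cells (21 to 1228 under the other settings), 1199 in LK cells (489 to 2331), 1515 in MSC (1506 to 2354), 609 between LSK and LK cells with IL-1β (190 to 1410) and 4 in the interaction (1 to 398). When each library was left out, they numbered 3 to 480 in LSK cells, 66 to 2409 in LK cells, 38 to 3819 in MSC, 89 to 1867 between LSK and LK cells with IL-1β and 0 to 336 in the interaction. With upper-quartile factors MSC had 817 higher and 831 lower calls, against 945 and 570. With no filter the median of all genes was -0.26 in LSK cells and -0.13 in LK cells.

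Deviations of PBS and IL-1β libraries with the same number had correlations of 0.140 and -0.039 in LSK cells and -0.103 and 0.061 in LK cells. With 2 IL-1β libraries such values mirror each other, so they cannot show whether a shared number means more than a label. The replicate block moved the calls over all genes to 702 in LSK cells and 2331 in LK cells. No paired analysis was possible for MSC because the treatments share only number 2. Of 42 group means in RPKM, 8 moved by more than 1 SD with DESeq2's size factors and 23 with library totals alone. Each of the 7 genes had at least 182 counts in every library, and each group had only 2 or 3 libraries.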
